A study of Mus musculus with 10 samples.

Results

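The genes described here are the organic anion, organic cation and ABC transporters expressed in mouse liver. They were taken as every gene symbol of the solute carrier families Slco and Slc22a and of the ABC families Abca, Abcb, Abcc and Abcg that had a mean of 10 or more counts over 10 livers, with 1 further ABC gene left out by the rule. Of 82 matching symbols, 53 met the minimum and 29 did not, out of 24537 symbols in the table. The 53 members comprised 6 Slco, 16 Slc22a, 9 Abca, 8 Abcb, 9 Abcc and 5 Abcg genes. The member nearest the minimum was Slc22a21 with a mean of 15.3 counts, and the matching symbol nearest below it was Slc22a13b-ps with 8.6 counts. The rule itself used no comparison between groups, but it was set with earlier results of these data known.

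RNA of whole livers from male mice was sequenced in 3 young controls aged 9 months, 3 old controls aged 25 months and 4 old livers labelled as Cd44 knockout, also aged 25 months. Mice of every group, controls included, had received an adeno-associated virus of serotype 8 (AAV8) carrying the Cas9 of Staphylococcus aureus and a guide RNA. The young mice received it at 7 months and the old mice at 23 months. In controls the guide targeted Rosa26, a locus used as a neutral site, and in the others it targeted Cd44, a surface receptor for hyaluronan. The TBG promoter that drives Cas9 is active in hepatocytes, so other liver cells are not meant to be edited. Of the knockout livers, replicates 1 and 2 carried guide 4 and replicates 3 and 4 carried guide 2. The labels do not state whether the libraries of a group came from separate animals, so p-values measure the spread between these samples, which may be partly technical.

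Hepatocytes take up bile acids, hormones, drugs and nutrients from blood through organic anion transporting polypeptides (Slco) and through the organic anion, cation and carnitine transporters of the Slc22a family. ABC transporters use ATP to move substrates outwards, into bile across the canalicular membrane or back into blood across the sinusoidal membrane. Abca and Abcg proteins mainly carry lipids and sterols, Abcb proteins carry drugs, phospholipids and peptides or serve mitochondria, and Abcc proteins carry conjugates.

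Total counts per liver ranged from 15821198 to 21710228, and 3 counts correspond to 0.131 to 0.198 CPM (counts divided by the liver's library size, in the customary scale). Cd44 had 16.6, 11.1 and 10.1 CPM in young livers, 14.2, 30.0 and 25.9 CPM in old controls, 18.9 and 29.0 CPM in the guide 4 livers and 17.6 and 13.1 CPM in the guide 2 livers. The livers labelled knockout therefore lay within the range of the old controls apart from 1 guide 2 liver, and whole-liver Cd44 mRNA did not separate the labels (edgeR adjusted p = 0.896). Old control replicate 3, whose library name falls outside the run of the others, was the highest of the 10 livers for 20 of the 53 members. The share of all genes for which it was the highest was not determined. The members' medians in comparisons with old controls and their calls with age are given with and without it. So are their counts at an unadjusted p under 0.05 against old controls. Counts by family, of groups without overlap, and of list and marker genes are given only with it. All 8 hepatocyte markers were detected, with a summed level of 105000 to 135000 CPM in young, 86300 to 119000 CPM in old control and 95000 to 96600 CPM in knockout livers.

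Expressed per kilobase of exon (CPM per kb), uptake carriers were among the most abundant members. Slco1b2, which takes up bile acids, bilirubin conjugates and drugs, had 111 ± 24.7 CPM per kb (SD, n = 10 livers), with a range of 82.7 to 168 CPM per kb. Lower levels were measured for Slc22a18, an imprinted orphan carrier, with 77.0 ± 10.4 CPM per kb and Abcc3, a sinusoidal exporter of conjugates, with 47.2 ± 8.45 CPM per kb; their ranges of 66.1 to 95.3 and 33.1 to 59.8 CPM per kb did not overlap. At the low end stood Abcb1b, 1 of the 2 mouse P-glycoprotein genes, with 0.183 ± 0.106 CPM per kb.

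Between young and old control livers, 14 of the 53 members changed, or 26.4%, against 22.8% of all 13909 genes tested (edgeR quasi-likelihood test, Benjamini-Hochberg adjusted p under 0.05 over all genes). All 53 members passed the filter on low counts. The old livers had higher levels of 10 members, where 14.1% of all genes were called higher, and lower levels of 4, where 8.66% were called lower. The share of members called was thus near that of all genes. By family the calls fell on 1 of 6 Slco, 4 of 16 Slc22a, 2 of 9 Abca, 0 of 8 Abcb, 4 of 9 Abcc and 3 of 5 Abcg genes. The groups did not overlap for 13 members that were higher in old livers (19.7% of all genes) and for 7 that were lower (18.0% of all genes). The median log2 fold change was 0.25 over the members and 0.04 over all genes tested. Without old control replicate 3 the members' median was 0.00 and 21 members were called, 12 higher and 9 lower, which is 39.6% of them against 38.2% of all genes. Those newly called included Abca6, Abca7, Abcb1b, Abcb4, Abcc10, Slc22a17 and Slco2a1, of which Abca7, Abcc10 and Slc22a17 were named after their values were seen. With another liver left out calls became fewer over the whole table. The members called were 4 (7.55%, against 3.22% of all genes) without young replicate 2, 6 (11.3% against 7.59%) without old control replicate 2, 7 (13.2% against 11.1%) without young replicate 3 and 9 (17.0% against 12.5%) without young replicate 1. A fit of these groups alone called 8 (15.1% against 8.18%), with Abca9, Abcc1, Abcc5, Abcc6, Abcg2 and Slco1a4 losing their calls.

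**Figure D1:**
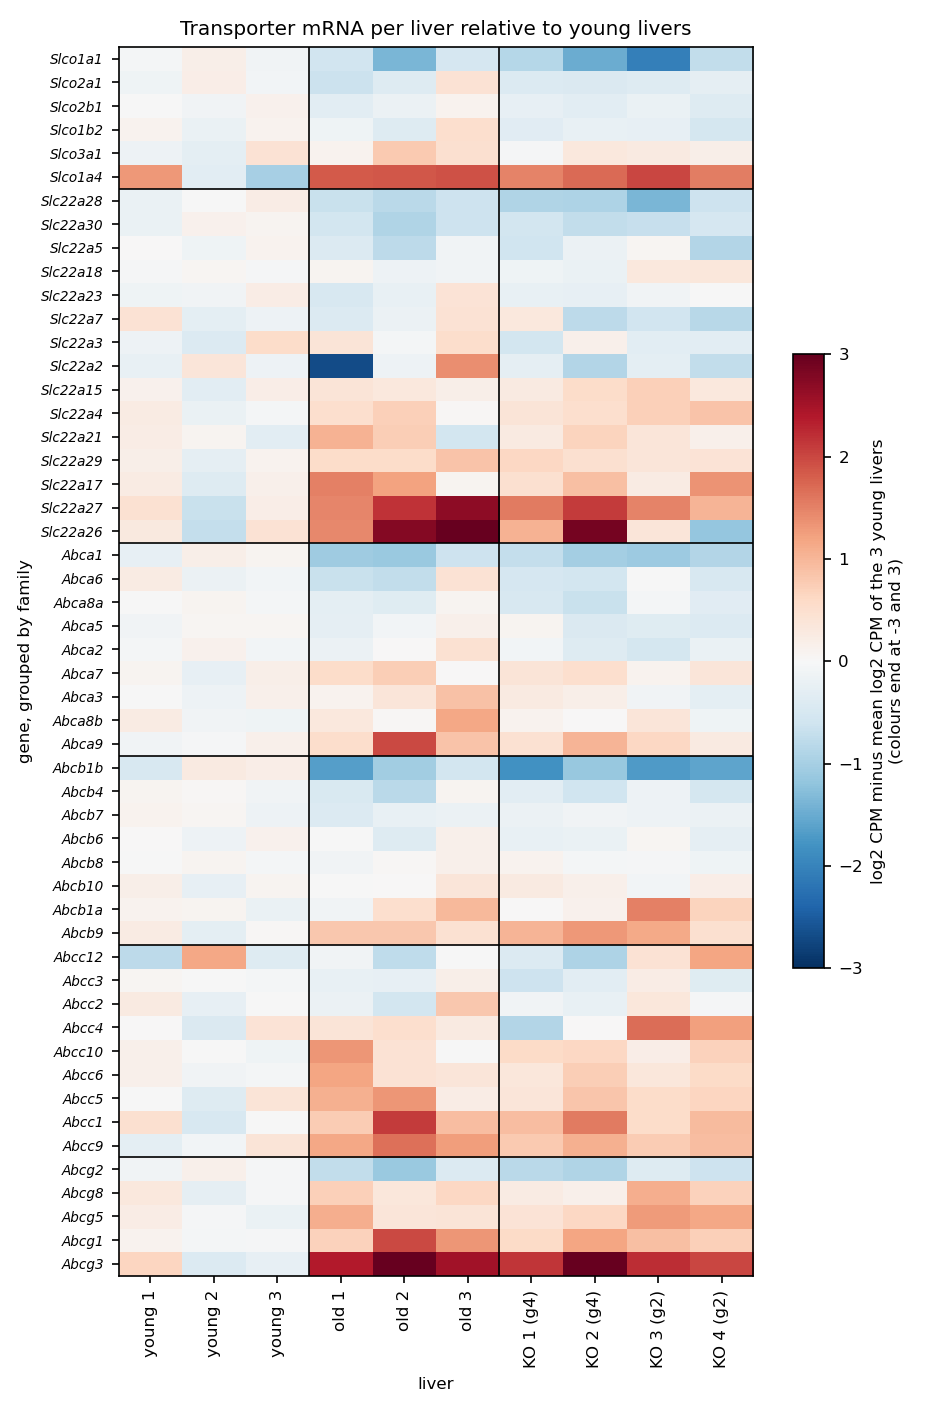
Level of 52 of the 53 transporters (rows, grouped by family) in each of the 10 livers (columns), as log2 CPM minus the mean log2 CPM of the 3 young livers; colours end at -3 and 3. Abcg3, Slco1a4 and Slc22a27 are red in every old liver and Abca1 is blue in every old liver. Old control replicate 3 is the highest liver for 20 of the 53 members, a share not determined for all genes.

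Among the Slco uptake carriers, the neighbours Slco1a4 and Slco1a1 on chromosome 6 differed in opposite directions. Both carry bile acids, steroid conjugates and drugs, and in mice Slco1a1 is known as male-predominant and Slco1a4 as female-predominant. Slco1a4 had 30.5, 9.96 and 6.21 CPM in young livers, 44.4, 45.1 and 46.5 CPM in old controls, and 34.9, 39.9, 49.3 and 35.9 CPM in knockout livers. Every old liver lay above every young one, and young replicate 1 lay well above the other young livers. Slco1a4 rose by 1.54 in log2 fold change in old controls (SE 0.43, edgeR adjusted p = 0.0289), and by 2.49 without young replicate 1 (adjusted p = 0.00851). The call was lost without young replicate 2 (0.114), without young replicate 3 (0.0638), without old control replicate 2 (0.0733) and with only these groups in the fit (0.0808). Slco1a1 had 251, 296 and 243 CPM in young livers, 176, 102 and 185 CPM in old controls, and 146, 93.6, 63.3 and 158 CPM in knockout livers. All 7 old livers were below all 3 young ones, yet the age difference of -0.77 (SE 0.32) did not pass (adjusted p = 0.101). The knockout livers differed from young ones by -1.19 (SE 0.30), which passed (adjusted p = 0.0330). Within each liver, Slco1a4 counts were 0.0255 to 0.122 of Slco1a1 counts in young, 0.251 to 0.443 in old control and 0.227 to 0.779 in knockout livers, without overlap between the young and the old.

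The other Slco members did not pass in any comparison. Slco1b2 had 627, 511 and 632 CPM in young and 535, 451 and 827 CPM in old control livers, a log2 difference of 0.03 (SE 0.21, adjusted p = 0.92). Slco2b1, a carrier of steroid sulfates, differed by -0.12 (SE 0.14, adjusted p = 0.534). Slco2a1, the prostaglandin transporter, ranged from 85.0 to 108 CPM in young livers and from 59.4 to 126 CPM in old controls, with old control replicate 3 the highest.

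In the Slc22a family the age calls fell on 4 of 5 adjacent genes of chromosome 19 (7781041 to 8405111 on GRCm38, all on the minus strand), and they pointed in opposite directions. Slc22a26, Slc22a27, Slc22a28, Slc22a29 and Slc22a30 are rodent relatives of the organic anion transporters, with substrates that are little characterised. The 100 bases upstream of each start, from RefSeq on GRCm38.p6, are shown because the pair that fell carries nearly the same sequence there. Capitals mark the longest run shared with Slc22a28 or, in Slc22a28, the longest run shared with Slc22a30; all are written 5′ to 3′ on the minus strand.
Slc22a26 at chr19:7802668-7802767: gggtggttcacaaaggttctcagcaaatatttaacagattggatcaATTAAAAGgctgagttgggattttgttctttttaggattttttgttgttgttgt
Slc22a27 at chr19:7966028-7966127: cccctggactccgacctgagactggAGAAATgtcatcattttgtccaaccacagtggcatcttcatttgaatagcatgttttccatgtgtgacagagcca
Slc22a29 at chr19:8218901-8219000: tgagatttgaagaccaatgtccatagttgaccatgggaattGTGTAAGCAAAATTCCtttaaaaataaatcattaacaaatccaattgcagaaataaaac
Slc22a28 at chr19:8131983-8132082: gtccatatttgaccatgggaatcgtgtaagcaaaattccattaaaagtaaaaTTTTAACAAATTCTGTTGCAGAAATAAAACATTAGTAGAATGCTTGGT
Slc22a30 at chr19:8405106-8405205: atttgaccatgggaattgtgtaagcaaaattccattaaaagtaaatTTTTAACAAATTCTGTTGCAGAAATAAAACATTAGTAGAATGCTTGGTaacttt
Slc22a28 and Slc22a30 shared an unbroken run of 48 bases and 92 identical bases when aligned over 100. Slc22a29 shared a run of 16 bases with Slc22a28, whereas the runs were 8 bases in Slc22a26 and 6 bases in Slc22a27. The aligned identity of Slc22a29 was 72 bases with Slc22a28 and 69 with Slc22a30, although Slc22a29 was higher in old livers, and the other pairs had 48 to 61 identical bases. This likeness extends into the transcripts. Of all stretches of 75 bases in the annotated exons, 44.8% in Slc22a28 and 29.6% in Slc22a30 also occur in another gene, mostly each other, so reads could be split between them or dropped. The shares were 16.8% in Slc22a27 and 17.3% in Slc22a29, mostly each other.

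Slc22a30, the most abundant of the 5, had 158, 201 and 192 CPM in young livers, 125, 98.3 and 119 CPM in old controls, and 125, 109, 113 and 128 CPM in knockout livers. It fell by 0.69 on the log2 scale with age (standard error 0.14, edgeR adjusted p = 0.0115), and the call was lost without young replicate 2 (0.0564). Slc22a28 had 24.6, 27.9 and 33.1 CPM in young livers, 17.9, 16.1 and 18.3 CPM in old controls, and 15.2, 14.8, 10.9 and 18.3 CPM in knockout livers. It fell by 0.71 (SE 0.18, adjusted p = 0.0204), a call lost without young replicate 2 (0.0673), young replicate 3 (0.0711) or old control replicate 2 (0.0749). For both genes every old liver lay below every young one. Summed, which removes the effect of reads split between them but not of reads dropped, they had 212 ± 26.1 CPM (SD, n = 3) in young, 132 ± 15.3 CPM (n = 3) in old control and 133 ± 11.6 CPM (n = 4) in knockout livers.

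Slc22a27 had 3.49, 1.58 and 2.91 CPM in young livers, 6.98, 11.4 and 16.2 CPM in old controls, and 7.44, 10.8, 7.11 and 5.14 CPM in knockout livers. It rose by 2.11 with age (SE 0.38, edgeR adjusted p = 0.00887) and was called in all 11 alternatives. Slc22a29 had 2.51, 1.85 and 2.41 CPM in young and 3.29, 3.28 and 4.05 CPM in old control livers, and its difference of 0.65 (SE 0.22) fell just outside the threshold (adjusted p = 0.0501); it is named here after its values were seen. Slc22a26 had 0.796, 0.396 and 0.887 CPM in young livers, 1.77, 4.42 and 20.4 CPM in old controls, and 1.34, 4.80, 0.848 and 0.292 CPM in knockout livers. Its log2 fold change with age of 3.66 (SE 1.05, adjusted p = 0.0316) rested largely on old control replicate 3: without that liver it was 2.15 and not called (adjusted p = 0.0804). Nor was it called without old control replicate 2 (0.0534) or without young replicate 1, 2 or 3 (0.0813, 0.117 and 0.0784). The knockout livers overlapped the young ones for this gene. The 5 genes summed to 218 ± 25.0 CPM (SD, n = 3) in young, 156 ± 22.4 CPM (n = 3) in old control and 146 ± 9.41 CPM (n = 4) in knockout livers.

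**Figure D2:**
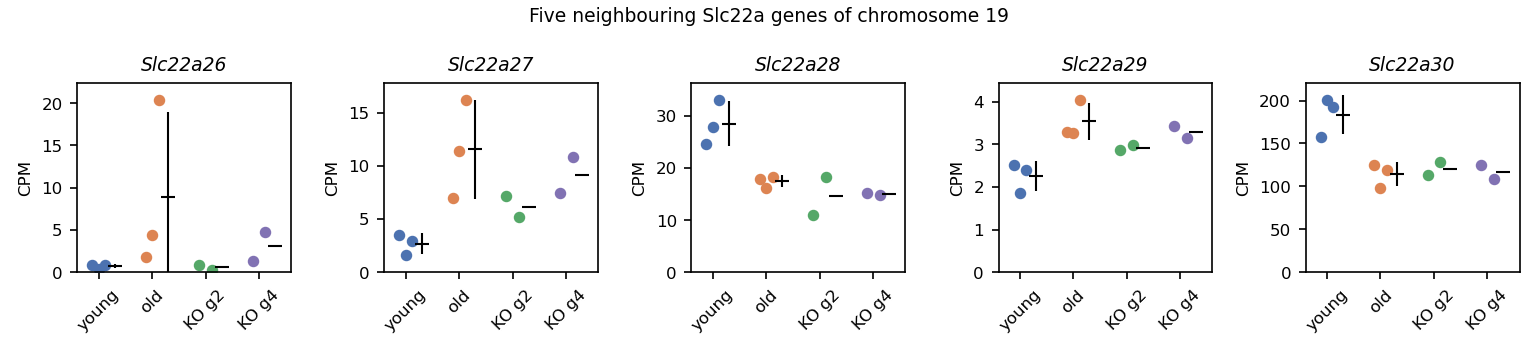
CPM of 5 neighbouring Slc22a genes in each liver (points) of the young, old control, guide 2 (KO g2) and guide 4 (KO g4) groups; black marks give the mean and, for groups of 3, the SD. Slc22a28 and Slc22a30 are lower in every old liver than in any young one, Slc22a27 and Slc22a29 are higher, and Slc22a26 reaches 20.4 CPM in a single old control.

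None of the other 11 Slc22a members was called with age in the fit over all livers. Slc22a5, the carnitine carrier of the plasma membrane, differed by -0.40 (SE 0.23, adjusted p = 0.226), and 18.0% of its 75-base stretches occur in another gene, mostly Slc22a21. Slc22a7, a sinusoidal organic anion carrier, had 31.3, 18.9 and 21.0 CPM in young and 17.3, 20.6 and 31.5 CPM in old control livers, fully overlapping. Slc22a2, a cation carrier best known from kidney, stayed between 0.197 and 3.34 CPM.

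Of the exporters at the canalicular membrane, Abcg2 fell with age. This pump exports urate, porphyrins and drugs. Abcg2 had 79.7, 94.0 and 82.5 CPM in young livers, 51.2, 39.3 and 63.9 CPM in old controls, and 48.3, 45.8, 65.1 and 55.8 CPM in knockout livers. Every old liver lay below every young one, and it fell by 0.73 on the log2 scale (by edgeR, SE 0.19, adjusted p = 0.0212). The call was lost without young replicate 2 (0.0846), young replicate 3 (0.0509) or old control replicate 2 (0.0760), and with only these groups in the fit (0.0570). Abcb4, which flips phosphatidylcholine into bile, had 239, 231 and 211 CPM in young and 164, 130 and 241 CPM in old control livers, a difference of -0.35 (SE 0.21, adjusted p = 0.245). Abcc2, which exports bilirubin glucuronide, had 243, 170 and 203 CPM in young and 179, 139 and 355 CPM in old control livers, a difference of 0.13 (SE 0.30, adjusted p = 0.779). In both genes old control replicate 3 was the highest of its group, and only Abcb4 was called, lower, without it.

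The P-glycoprotein genes Abcb1a and Abcb1b, drug exporters that lie side by side on chromosome 5, took different courses. Abcb1b had 1.77, 2.97 and 2.85 CPM in young livers, 0.786, 1.19 and 1.67 CPM in old controls, and 0.697, 1.13, 0.754 and 0.817 CPM in knockout livers. All old livers lay below all young ones. The age difference of -1.05 (SE 0.35) reached an adjusted p of 0.05 after rounding but not the threshold in edgeR, while DESeq2 called it; against young livers the knockout livers fell by 1.56 (SE 0.33, edgeR adjusted p = 0.0222). Abcb1a did not pass in either comparison, at 0.51 (SE 0.40, adjusted p = 0.373) and 0.70 (SE 0.38, adjusted p = 0.221). Counts of Abcb1a were 0.756 to 1.52 times those of Abcb1b in young livers, 2.91 to 2.96 times in old controls and 2.38 to 9.31 times in knockout livers. The genes share 11.4% (Abcb1a) and 12.6% (Abcb1b) of their 75-base stretches with another gene, mostly each other, and Abcb1b had as few as 12 counts in a liver. Abcb9, a lysosomal peptide transporter, had 1.53, 1.06 and 1.33 CPM in young and 2.61, 3.18, 2.83 and 1.81 CPM in knockout livers, a rise of 1.0 (SE 0.27, adjusted p = 0.0390). This call was lost whichever of these 7 livers was left out (adjusted p from 0.0539 to 0.152).

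The Abcc family held 4 members that rose with age and 0 that fell. Abcc6, which releases ATP from hepatocytes and is mutated in the calcification disorder pseudoxanthoma elasticum, had 163, 136 and 139 CPM in young livers, 331, 196 and 186 CPM in old controls, and 184, 241, 185 and 217 CPM in knockout livers. All old livers lay above all young ones, old control replicate 1 furthest. Its log2 fold change was 0.70 (SE 0.22, edgeR adjusted p = 0.0386), and it was 0.39 without old control replicate 1 (adjusted p = 0.0919). The call was also lost without old control replicate 2 (0.0552) and without young replicate 1, 2 or 3 (0.0652, 0.130 and 0.105). Abcc5, an exporter of cyclic nucleotides and folates, had 6.18, 4.75 and 8.11 CPM in young and 12.9, 15.4 and 7.20 CPM in old control livers. These groups overlapped, old control replicate 3 being within the young range, and the rise of 0.90 (SE 0.28, adjusted p = 0.0404) was lost without young replicate 1 (0.101), young replicate 2 (0.151), old control replicate 1 (0.0824) or old control replicate 2 (0.153). Abcc3, the sinusoidal exporter, differed by -0.09 (SE 0.20, adjusted p = 0.782), with 306, 290 and 281 CPM in young and 250, 248 and 328 CPM in old control livers.

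Abcc9 encodes the sulfonylurea receptor subunit of ATP-sensitive potassium channels and is known from pericytes and smooth muscle. It had 11, 12.7 and 17.5 CPM in young livers, 29.9, 42.3 and 32.0 CPM in old controls, and 23.2, 28.0, 22.7 and 25.8 CPM in knockout livers. The 3 groups did not overlap, the old controls being highest and the knockout livers in between. With age it rose by 1.34 (SE 0.19, edgeR adjusted p = 0.00667), in all 11 alternatives. Abcc1, an exporter of glutathione conjugates and leukotrienes that is low in hepatocytes, had 2.57, 1.32 and 1.84 CPM in young and 3.10, 7.89 and 3.48 CPM in old control livers. It rose by 1.33 (SE 0.41, adjusted p = 0.0396), but without old control replicate 2 the value was 0.78 and not called (adjusted p = 0.170), and the call was also lost without young replicate 1, 2 or 3 (0.0533, 0.144 and 0.102).

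The sterol and phospholipid exporters Abca1 and Abcg1 moved in opposite directions with age. Abca1 loads cholesterol onto lipid-poor apolipoprotein A-I, and Abcg1 onto mature high density lipoprotein. Abca1 had 148, 200 and 186 CPM in young livers, 84.7, 81.5 and 114 CPM in old controls, and 108, 87.0, 83.5 and 95.5 CPM in knockout livers. Every old liver lay below every young one. Abca1 fell by 0.93 on the log2 scale (by edgeR, SE 0.17, adjusted p = 0.00925), or 1.91-fold, and was called in all 11 alternatives. Abcg1 had 7.47, 6.60 and 6.72 CPM in young livers, 11.2, 27.2 and 17.4 CPM in old controls, and 10.3, 15.8, 12.9 and 11.3 CPM in knockout livers. The young livers were tightly grouped below all old ones. Abcg1 rose by 1.42 (SE 0.28, adjusted p = 0.0103), by 1.04 without old control replicate 2 (adjusted p = 0.0318), and the call was lost without young replicate 2 (0.0526). Within a liver, Abca1 counts were 19.8 to 30.4 times Abcg1 counts in young, 2.99 to 7.59 times in old control and 5.51 to 10.5 times in knockout livers.

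Abcg3, a rodent-specific relative of Abcg2, showed the steepest rise that held in all 11 alternatives. It had 1.53, 0.726 and 0.824 CPM in young livers, 5.06, 13.7 and 5.58 CPM in old controls, and 4.30, 8.11, 4.52 and 3.91 CPM in knockout livers. All old livers lay above all young ones, with old control replicate 2 the highest. The rise was 2.97 (SE 0.48, edgeR adjusted p = 0.00772), or 7.83-fold, and 2.36 without old control replicate 2 (adjusted p = 0.0239). Abca9, a little studied gene of the chromosome 11 Abca cluster, had 1.71, 1.78 and 2.03 CPM in young and 2.65, 7.29 and 3.34 CPM in old control livers. Its rise of 1.27 (SE 0.37, adjusted p = 0.0343) was 0.70 and not called without old control replicate 2 (adjusted p = 0.135), and the call was lost without young replicate 1, 2 or 3 (0.0926, 0.108 and 0.0738). Its neighbour Abca6 differed by -0.23 (SE 0.28, adjusted p = 0.578).

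**Figure D3:**
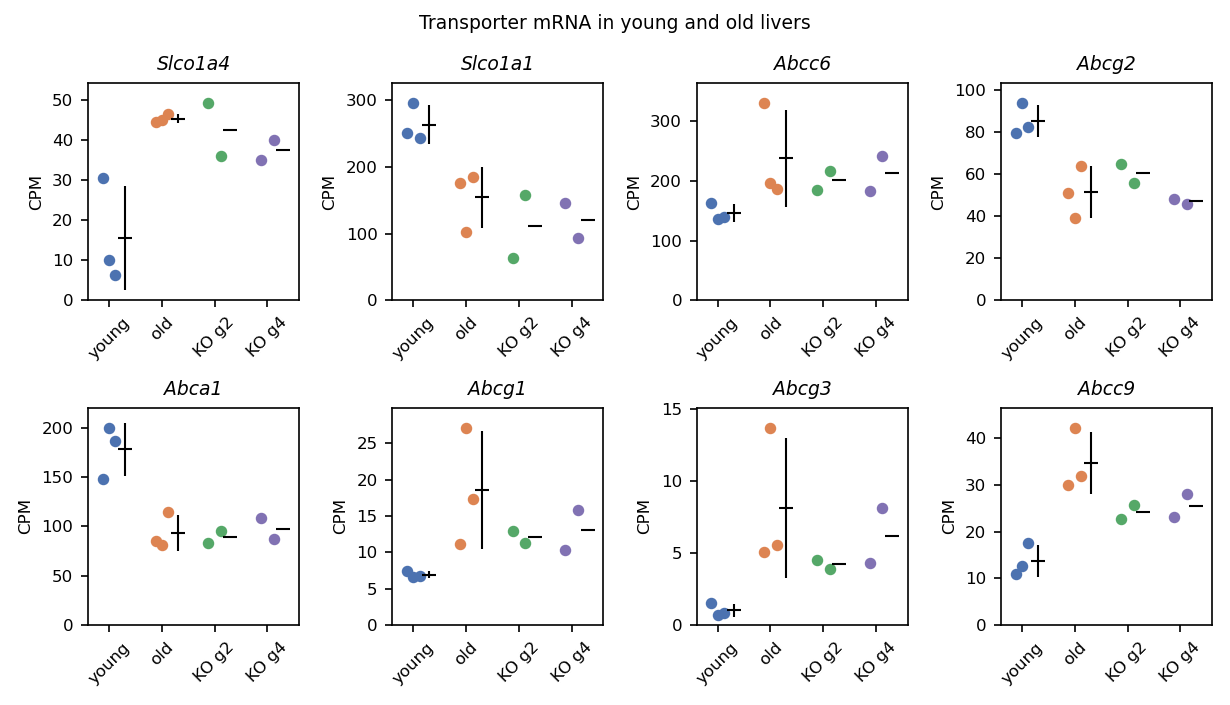
CPM of 8 transporters in each liver (points) of the young, old control, guide 2 (KO g2) and guide 4 (KO g4) groups, each axis starting at 0; black marks give the mean and, for groups of 3, the SD. Slco1a1, Abcg2 and Abca1 are lower and Slco1a4, Abcc6, Abcg1, Abcg3 and Abcc9 are higher in all 7 old livers than in any of the 3 young ones.

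Abcg5 and Abcg8 form 1 heterodimer that exports sterols into bile, and the genes lie head to head on chromosome 17. Their RefSeq starts are 110 bases apart, and the bases between them are shown because the shared stretch is upstream of both genes (GRCm38.p6, plus strand, no capitals since none of the motifs searched occurs in it).
Abcg5 and Abcg8, chr17:84683012-84683120: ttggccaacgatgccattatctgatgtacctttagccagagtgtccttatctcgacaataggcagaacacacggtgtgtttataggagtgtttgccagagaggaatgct
Abcg5 had 59.8, 50.5 and 44.8 CPM in young livers, 110, 65.9 and 67.1 CPM in old controls, 67.8 and 78.9 CPM in guide 4 livers and 124 and 115 CPM in guide 2 livers. Abcg8 had 74.4, 50.1 and 58.5 CPM in young livers, 98.0, 76.7 and 92.4 CPM in old controls, 71.2 and 67.2 CPM in guide 4 livers and 129 and 97.2 CPM in guide 2 livers. The old controls lay above the young livers for both genes, but the age differences of 0.65 (SE 0.26, edgeR adjusted p = 0.0937) and 0.55 (SE 0.24, adjusted p = 0.122) did not pass. In knockout against young livers Abcg5 rose by 0.90 (SE 0.25, adjusted p = 0.0420), whereas the 0.58 of Abcg8 did not pass (SE 0.23, adjusted p = 0.106). The ratio of Abcg5 to Abcg8 counts stayed between 0.726 and 1.18 in all 10 livers. The annotation has Abcg8 starting at 84676302, inside Abcg5, and the strand used in counting is not given in the sources used here, so reads of the overlap cannot be assigned with certainty.

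Of the 42 members with a RefSeq promoter window (250 bases before to 50 after a start), 6 held TTCNNNGAA, the core of STAT sites, on either strand: Abcc4, Abcc5, Slc22a15, Slc22a26, Slco1b2 and Slco2b1. A member can have more than 1 window. Counted by window, 7 of 49 member windows held it, against 8.30% of all windows of that length. Likewise 6 members held TGACNNNGC, the antioxidant element core: Abca8b, Abcb1a, Abcc10, Abcc2, Abcc4 and Slc22a27. By window these were 8 of 49, against 12.4% of all windows. Of these 11 genes, Slc22a26, Abcc5 and Slc22a27 were called with age. The share called with age was 26.4% over all members and 22.8% over all genes. The direct repeats of AGGTCA spaced by 4 or by 1 bases occurred in 0 member windows and in 0.0152% and 0.0396% of all windows. A match is only a match of letters in the window.

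Markers of other liver cells moved with age alongside the members that rose. In whole tissue a change in the number of cells of a type and a change in RNA per cell cannot be told apart. Of 9 stellate cell and pericyte markers 6 rose, with a summed level of 241 to 366 CPM in young, 432 to 664 CPM in old control and 382 to 432 CPM in knockout livers, an order of groups also seen for Abcc9. Of 9 endothelial markers 7 rose (179 to 247, 358 to 407 and 245 to 307 CPM), and of 8 markers of monocyte-derived macrophages 4 rose (112 to 199, 247 to 624 and 219 to 329 CPM). The macrophage sum includes Spp1, named after its values were seen, which is also in the cholangiocyte list. Spp1 had 35.7 to 82.4 CPM in young, 81.0 to 114 CPM in old control and 69.4 to 140 CPM in knockout livers. Of 7 Kupffer cell markers 4 rose and 1 fell (481 to 530, 446 to 1070 and 399 to 562 CPM). The 1 that fell was C6, named after its values were seen, and in young livers it was the largest part of the sum. It held 310 to 338 CPM of the sum in young, 156 to 230 in old control and 120 to 172 in knockout livers. Old control replicate 2, which had the highest Abcg1, Abcg3, Abcc1 and Abca9, also had the highest macrophage, Kupffer cell and neutrophil sums, the last at 280 CPM against 3.29 to 22.2 CPM in the other livers. That liver was also the highest for the stellate cell (664 CPM), endothelial (407 CPM), T and NK cell (54.1 CPM) and B and plasma cell (34.6 CPM) sums. It was not the highest for the hepatocyte, cholangiocyte or erythroid and megakaryocyte sums. All 4 neutrophil markers tested rose, as did 4 of 8 T and NK cell and 4 of 6 B and plasma cell markers. Among all genes 14.1% were called higher. The T and NK cell sum was 3.48 to 4.68 CPM in young and 4.63 to 54.1 CPM in old control livers, which overlapped. For B and plasma cells the sum was 3.69 to 8.02 CPM in young and 8.39 to 34.6 CPM in old control livers. Old control replicate 3 was the lowest old control for both sums. Of 8 hepatocyte markers 2 fell, and 0 of the cholangiocyte markers changed. No listed marker was at 0 in every liver. The part of these cells in the members' changes was not tested.

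Related gene lists were set beside the members for the age comparison, in which 22.8% of all genes were called. Of 20 tested partners of the members at the basolateral and canalicular membranes, 1 rose and 2 fell, or 15.0% called (median log2 fold change -0.16, against 0.04 over all genes). Msn, which links membrane proteins to actin, rose by 1.28 (SE 0.36, edgeR adjusted p = 0.0285). The lactate carrier Slc16a1 fell by 0.95 (SE 0.21, adjusted p = 0.0131) and the scaffold Slc9a3r1 by 0.56 (SE 0.14, adjusted p = 0.0220). The bile acid carrier Slc10a1, named after its values were seen, had 536, 531 and 476 CPM in young and 342, 483 and 512 CPM in old control livers (adjusted p = 0.408). Of 27 regulators of transporter genes 0 rose and 3 fell, or 11.1% called, with a median of -0.14. Among those that fell were the liver transcription factors Hnf4a, which fell by 0.96 (SE 0.22, adjusted p = 0.0147), and Foxa3, which fell by 1.11 (SE 0.21, adjusted p = 0.00936). Hnf4a had 1170, 1190 and 1070 CPM in young and 437, 475 and 842 CPM in old control livers. The nuclear receptors Nr1h3, Nr1h4 and Nr1i2, sensors of oxysterols, bile acids and foreign compounds, differed by -0.11, -0.15 and -0.20 and did not pass; they too were named after their values were seen. Of 10 other ABC proteins 2 rose and 2 fell, or 40.0% called. Abcd2, a peroxisomal importer of fatty acids, rose by 2.10 (SE 0.36, adjusted p = 0.00808). The 2 that fell were Abce1, a ribosome recycling factor, and Abcf2, with log2 fold changes of -0.64 and -0.51.

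The comparison of old knockout with old control livers set the livers labelled as Cd44 knockout against controls of the same age. Whole-liver Cd44 mRNA did not separate these groups (log2 fold change -0.25, SE 0.30, edgeR adjusted p = 0.896). Loss of Cd44 in hepatocytes was not measured here. No member changed, and no gene of the whole table did (0.0% called; the smallest edgeR adjusted p was 0.744). At an unadjusted p under 0.05 stood 5 members, 9.43% of 53, against 6.59% of all genes: Slc22a26, Abcc9, Abca2, Abca3 and Abcg1, each lower in knockout livers. Abca2 and Abca3 are named after their values were seen. DESeq2 called 0 members and 7 genes in all. Abcc9 was the only member whose groups did not overlap, all 4 knockout livers lying below the 3 old controls by -0.48 (SE 0.17, unadjusted p = 0.0172, adjusted p = 0.744); 3.26% of all genes were lower and 2.84% higher without overlap. The stellate and endothelial sums given above were also lower in the knockout livers than in the old controls, the stellate ranges meeting at 432 CPM. Their markers had median log2 fold changes of -0.38 and -0.44, with 0 called. This was not particular to these cells. All 7 Kupffer cell, all 8 macrophage and all 4 neutrophil markers also lay below 0 (medians -1.02, -0.73 and -3.31, 0 called). Above 0 were 5 of 8 T and NK cell and 5 of 6 B and plasma cell markers. Of the 53 members 38 lay below 0, with a median of -0.18 against -0.02 over all genes. Without old control replicate 3 the median was -0.04, and 3 members (5.66%) stood at an unadjusted p under 0.05, against 11.4% of all genes. Slc22a26 differed most, by -2.25 (SE 0.84, adjusted p = 0.744), and by -0.74 without old control replicate 3 (adjusted p = 0.714).

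Compared with young livers, the knockout livers showed 11 changed members, 20.8%, where 11.6% of all genes were called. Of these 5 were higher (6.64% of all genes) and 6 lower (4.97% of all genes). Higher were Abcg3 by 2.34 (SE 0.47, edgeR adjusted p = 0.0186), Slc22a27 by 1.52, Abcb9 by 1.0, Abcg5 by 0.90 and Abcc9 by 0.86. Lower were Abcb1b, Slco1a1, Slc22a28 by 0.95, Abca1 by 0.93, Abcg2 by 0.67 and Slc22a30 by 0.63, all as falls on the log2 scale. Of the 11, 7 were also called between old controls and young livers: Abca1, Abcc9, Abcg2, Abcg3, Slc22a27, Slc22a28 and Slc22a30. The young livers are common to both comparisons, so they are not independent. Slco1a4 was 1.36 higher (SE 0.41, adjusted p = 0.0536) and Abcg1 0.86 higher (SE 0.27, adjusted p = 0.0588), both just short of the threshold. Members and all genes alike lost calls when a liver other than knockout replicate 1 was left out; without that one, 9 members (17.0%) and 11.9% of all genes were called. The members called were 0 without young replicate 2 (0.41% of all genes), 1 without young replicate 3 (1.89%, against 1.32% of all genes), 4 without knockout replicate 2 or 3 (7.55%, against 2.82% and 2.34%), 5 without knockout replicate 4 (9.43% against 2.11%) and 6 without young replicate 1 (11.3% against 3.16%). A fit of these groups alone gave 20 (37.7% against 30.7%). Over 12 alternatives, the number in which a call was lost ran from 2 for Abca1, Abcg3 and Slc22a28 to 7 for Abcb9 and 8 for Abcg2.

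**Figure D4:**
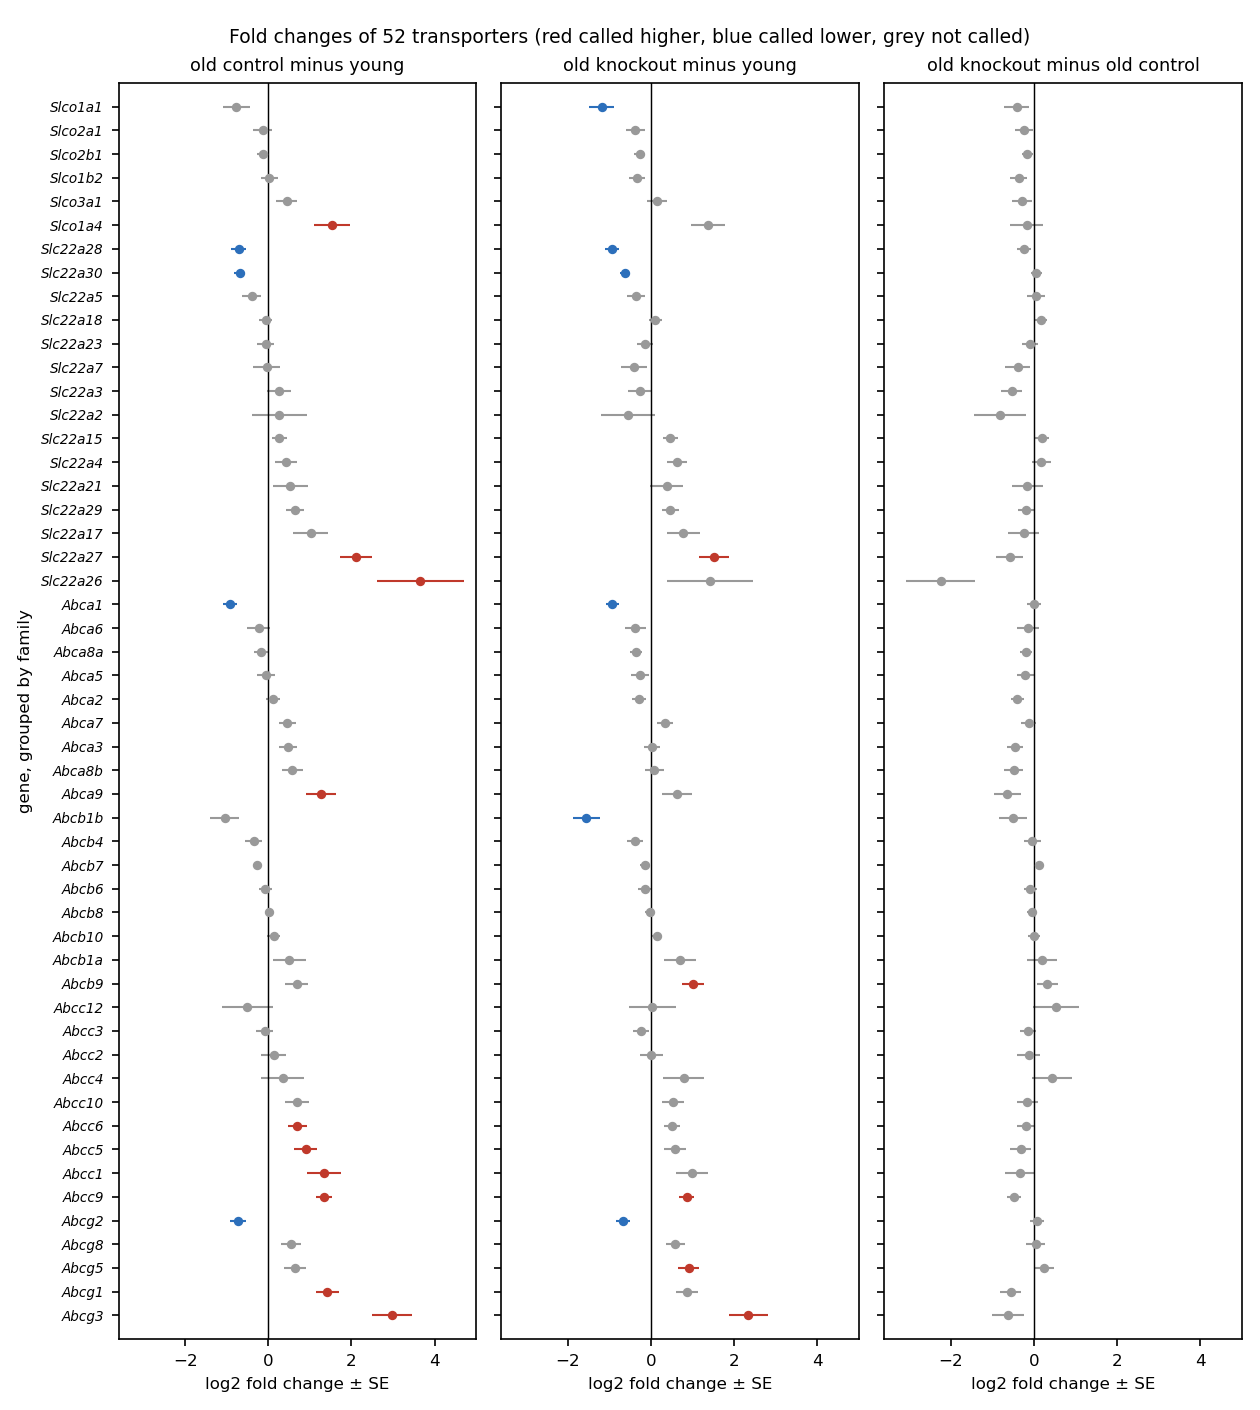
Log2 fold change (point) and SE (bar) of 52 of the 53 transporters, grouped by family, in 3 comparisons; red points were called higher and blue points lower at an edgeR adjusted p under 0.05. There are 14 coloured points for old control against young livers, 11 for old knockout against young livers and 0 for old knockout against old control livers.

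Between the guides, with 2 livers each, edgeR called 0 members and 3 genes in all (0.0216%). At an unadjusted p under 0.05 stood 6 members, 11.3% of 53, where 4.34% of all genes did: Abcc4, Abcc12, Abcb1a, Abcg8, Abcg5 and Slc22a18, each lower with guide 4. The groups did not overlap for 13 members that were lower and 5 that were higher with guide 4 (20.4% and 18.1% of all genes). Abcc4, a sinusoidal exporter of bile acids and cyclic nucleotides, had 2.03 and 3.75 CPM in the guide 4 livers and 11.9 and 8.75 CPM in the guide 2 livers. The old controls had 4.87, 5.33 and 4.53 CPM and the young livers 3.79, 2.77 and 5.01 CPM, so both guide 2 livers were above the other 8. Guide 4 differed from guide 2 by -1.82 (SE 0.35, unadjusted p = 0.000368, edgeR adjusted p = 0.25), and DESeq2 called this difference (adjusted p = 0.00101). The same position above all other livers held for Abcg5, whose values are given above, and Slc22a18, so for 3 members in all. Both guide 4 livers were above all others for 0 members and below all others for 1, Abca8a. The share of all genes in these positions was not determined. Slc22a18, named after its values were seen, had 117 and 112 CPM in the guide 4 livers and 160 and 162 CPM in the guide 2 livers, against 115 to 136 CPM in the 6 controls. It was the other member that DESeq2 called, 3.77% of the members against 0.502% of all genes with an adjusted p. Abcb1a had 2.5 and 2.7 CPM in the guide 4 livers and 7.02 and 3.97 CPM in the guide 2 livers, the latter within the range of the old controls. Cholangiocyte markers went the same way: all 7 were lower with guide 4 than with guide 2 (median log2 fold change -0.82, 0 called). They were higher with guide 2 than in old controls (0.42) and lower with guide 4 than in old controls (-0.43). Their summed level was 98.6 and 83.0 CPM in the guide 4 livers, 123 and 170 CPM in the guide 2 livers, 95.2 to 137 CPM in old controls and 51.9 to 111 CPM in young livers. Most of this sum was Spp1, which is also in the macrophage list. Spp1 had 82.0 and 69.4 CPM in the guide 4 livers and 97.2 and 140 CPM in the guide 2 livers. None of the 7 was at 0 in every liver. Markers of other cells also differed between the guides, with 0 called. Higher with guide 4 were 6 of 6 B and plasma cell, 6 of 7 Kupffer cell and 7 of 8 T and NK cell markers. So were 7 of 9 endothelial and 5 of 6 erythroid and megakaryocyte markers, while 3 of 4 neutrophil markers were lower. The part of any of these cells in the members' differences was not tested.

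Each guide was also set against the old controls. With guide 2, edgeR called 0 members (0.0216% of all genes), and 8 members, 15.1% of 53, stood at an unadjusted p under 0.05 (7.04% of all genes). Abcc4 was 1.07 higher (SE 0.30, adjusted p = 0.441), and Slc22a26 differed by -3.90 (SE 1.09, adjusted p = 0.44), the latter called by DESeq2 (adjusted p = 0.00273; 1.89% of members and 0.723% of all genes called). Without old control replicate 3 the Slc22a26 difference was -2.39 (edgeR adjusted p = 0.316), that of Abcc4 was 1.02, and 13 members (24.5%) stood at an unadjusted p under 0.05, against 11.8% of all genes. The members' median was then -0.05, against -0.20 with that liver. With guide 4, edgeR called 0 members (0.0% of all genes), and 2 stood at an unadjusted p under 0.05, or 3.77% (3.91% of all genes). These were Abcc4, -0.75 (SE 0.32, adjusted p = 0.98), and Abca8a, -0.39 (SE 0.17, adjusted p = 0.98), the latter named after its values were seen. Without old control replicate 3 the Abcc4 difference was -0.80, 2 members stood at an unadjusted p under 0.05 (8.49% of all genes), and the members' median was -0.13, against -0.27 with that liver. For Abcc4 the guides thus lay on opposite sides of the old controls, without overlap, although neither difference from the controls passed. The summed Abcg level was 336 and 283 CPM in the guide 2 livers, 202 and 216 CPM in the guide 4 livers, and 223 to 275 CPM in the old controls. Most of this sum was Abcg5 and Abcg8, whose values are given above. Between guide 4 and guide 2, Abcg2 was also lower with guide 4 (log2 fold change -0.36). Abcg1 and Abcg3 were higher with guide 4 (0.11 and 0.56), and none was called.

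**Figure D5:**
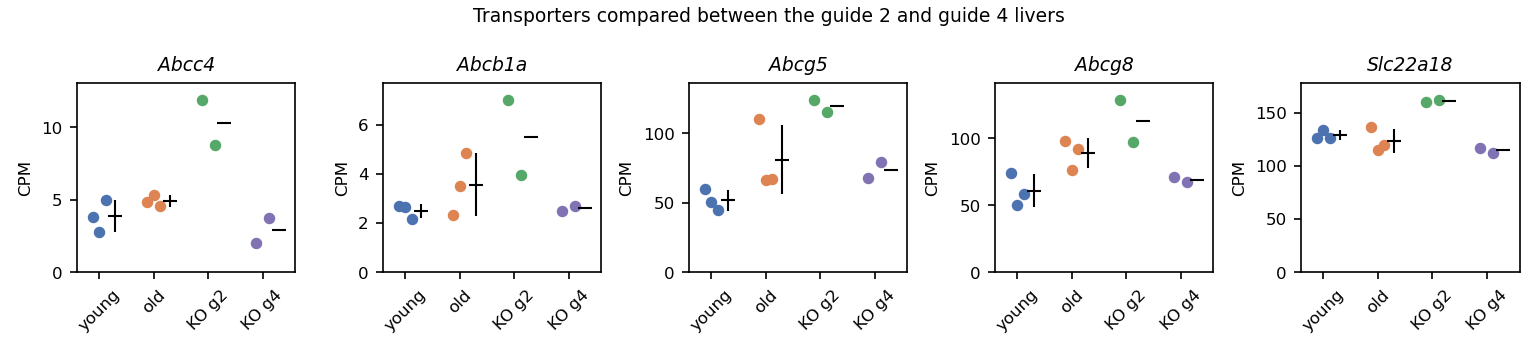
CPM of 5 transporters in each liver (points) of the young, old control, guide 2 (KO g2) and guide 4 (KO g4) groups, each axis starting at 0; black marks give the mean and, for groups of 3, the SD. For Abcc4, Abcg5 and Slc22a18 both guide 2 livers lie above the other 8 livers, a position whose share of all genes was not determined. For Abcb1a and Abcg8 a guide 2 liver falls within the range of the old controls.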

How the data were processed

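The authors deposited raw counts per gene symbol for 10 livers. The submitters' processing notes name FastQC 0.11.8, Trim Galore 0.4.4, STAR 2.5.3a, HOMER and the build mm10; their settings, gene annotation and strand handling are not given in the sources used here. Total counts were 15821198 to 21710228. Livers were grouped by title. Replicate numbers follow the order of the records and pair nothing.

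Counts were tested with edgeR 4.0.16 in R 4.3.3: quasi-likelihood test, TMM factors, filterByExpr (minimum count 10, minimum total 15), 1 coefficient per group over all 10 livers, and a second fit with a coefficient per guide. Benjamini-Hochberg adjustment covered all 13909 genes tested, with calls at an adjusted p under 0.05. The SE is the log2 fold change divided by the square root of F. CPM use TMM factors, and CPM per kb use GENCODE M21 exons on GRCm38. Alternatives were DESeq2 1.42.0, RLE and upper-quartile factors, no filter, only the groups compared, and each liver left out. Scripts were tested on simulated data. No pair of livers within a group agreed within sampling noise (smallest chi-square per degree of freedom 20.3). Floors of 3 counts cover counting error only.

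Members, lists, motifs and markers were chosen with earlier results of these data known. Genes named are members called in any comparison or among the 5 largest differences in one, both with a mean CPM of 1 or more in the higher group, members with known liver roles, and called list genes, at most 5 per list. Others are stated to have been named after their values were seen. Promoters are from RefSeq on GRCm38.p6, for 42 of 53 members. Results for 3 genes, 1 of them a member, are not reported here.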

Additional observations from a re-analysis of the deposited data

Results flagged for a closer look

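Among the 4 knockout livers, 5 of 53 members had 1 liver set apart from the other 3, as measured by its gap to the nearest liver divided by the range of the group (above Dixon's 95% critical value for 4 samples); about 2.65 would be set apart by chance at 1 in 20. Abca6 was highest in knockout replicate 3, at 51.8 CPM against 35.6 to 37.1 CPM (share of the range 0.9103). Abcb6, a mitochondrial and lysosomal porphyrin transporter, was also highest in knockout replicate 3, at 63.0 CPM against 50.4 to 52.6 CPM (0.8291), and 88.5% of its 75-base stretches also occur in another annotated gene, Gm29253. Abca5 was highest in knockout replicate 1, at 3.78 CPM against 2.62 to 2.78 CPM (0.861), as was Slc22a7, at 28.9 CPM against 13.1 to 15.6 CPM (0.8438). Abcg3 was highest in knockout replicate 2, at 8.11 CPM against 3.91 to 4.52 CPM (0.8545). Groups of 3 were not examined in this way.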

How the results depend on the processing

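No paired analysis was possible because the replicate numbers follow the order of the records and link no livers across groups. With each liver left out in turn, the count of members changed with age ranged from 4 to 21, against 14, while 3.22% to 38.2% of all genes were called, against 22.8%. That of knockout against young livers ranged from 0 to 9, against 11, with 0.41% to 11.9% of all genes, against 11.6%. With only the compared groups in the fit these counts were 8 and 20 (8.18% and 30.7% of all genes). DESeq2 called 2 members between the guides and 1 between guide 2 and old controls (0.502% and 0.723% of all genes), where edgeR called 0. The count for knockout against old controls was 0 in all 12 alternatives and that for guide 4 against old controls 0 in all 10. Upper-quartile factors moved the median of all genes with age from 0.04 to 0.15 and that of the members from 0.25 to 0.36, with 15 members called. Of 286 values of the 25 called results of named members under the alternatives, 197 stayed called in the same direction, 89 kept the direction and lost the call, and 0 reversed; the cause was not tested. Members with few counts are measured least precisely: Slc22a26 had 5 to 427 counts per liver and Abcb1b 12 to 45.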
